A study of Mus musculus with 7 samples.

Results

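The tumor necrosis factor (TNF) superfamily comprises trimeric ligands and the receptors that bind them. Its members were chosen by symbol: protein-coding genes whose symbols begin with Tnfsf or Tnfrsf, together with Tnf, Lta, Ltb, Ltbr, Fas, Fasl, Cd27, Cd40, Cd40lg, Cd70, Ngfr, Eda and Edar. The table of 53465 genes held 45 such genes, of which 19 encode ligands and 26 encode receptors. Of these, 32 passed the filter on low counts (11 ligands and 21 receptors), and the other 13 are given below with their counts.

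The study asked how mouse mammary tumors change once they have become resistant to blockade of PD-L1, a ligand that restrains T cells. Cells of EMT6, a mammary carcinoma line of the mouse, were placed orthotopically in female BALB/c mice aged 6 to 8 weeks. RNA from 3 EMT6-P tumors (the parental line, given IgG isotype control antibody), 3 EMT6-PTR tumors (the αPD-L1 treatment-resistant variant, given αPD-L1 antibody) and 1 metastasis of the resistant variant was sequenced. Each antibody was given at 250 μg per mouse every 3 days until the institutional endpoint. The labels write PDR for PTR, number the tumors without naming the mice and call the tissue of the metastasis breast tumor. All libraries derive from a single cell line and hold the RNA of tumor and host cells together, so that fewer cells of a type and less RNA per cell cannot be told apart. The cell variant and the antibody differ together between the 2 groups of primary tumors, so that their effects cannot be told apart. The p-values measure only the spread between these samples.

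Total estimated counts were 20476480, 21936692 and 20624015 in the EMT6-P tumors, 21433396, 20430110 and 25213472 in the EMT6-PTR tumors, and 24592782 in the metastasis. Levels are given as CPM, the counts of a gene scaled by library size, with upper-quartile factors. On this scale 3 counts correspond to between 0.117 and 0.167 CPM. A difference was called at an adjusted p under 0.05 in edgeR's quasi-likelihood test.

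TNF family ligands are made as membrane proteins, and several are shed as soluble cytokines. Receptors with a death domain can recruit caspases, many receptors (TNF receptor 1 among them) activate NF-κB through TRAF adaptors, and decoy receptors bind ligand without signaling. In tumors, TNF and the lymphotoxins are known for inflammatory signaling, Fas and TRAIL receptors for apoptosis, and 4-1BB, OX40 and GITR for costimulation of T cells.

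Marker genes showed that 2 libraries stood apart from the others. The summed level of 6 lung epithelium markers was 7651 CPM in the metastasis and between 6.94 and 12.9 CPM in the 6 primary tumors. The surfactant gene Sftpc alone reached 2348 CPM in the metastasis, against at most 0.189 CPM in any primary tumor. The sum of 5 neutrophil markers was 2818 CPM in the metastasis and between 23.7 and 56.6 CPM in the primary tumors. The metastasis library therefore held lung and neutrophil transcripts that the primary tumors had only at low levels.

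EMT6-PTR replicate 3 was the other such library. The sum of 6 epithelial carcinoma markers was 2654, 2519 and 2728 CPM in the EMT6-P tumors, 2610, 2378 and 611 CPM in the EMT6-PTR tumors and 1182 CPM in the metastasis. EMT6-PTR replicate 3 was the lowest primary tumor for 4 of these 6 genes, but not for Epcam (8.83 CPM) and Krt5 (1.13 CPM). In the metastasis Epcam and Cdh1 were at 52.2 and 138 CPM, above every primary tumor. The keratin gene Krt8, the most abundant of this list, was at 1685 to 1898 CPM in 5 primary tumors and at 505 CPM in EMT6-PTR replicate 3. The sum of 5 cycling cell markers was between 571 and 713 CPM in those 5 tumors, 77.6 CPM in EMT6-PTR replicate 3 and 85.4 CPM in the metastasis. The sum of 5 fibroblast markers was 3322 to 5914 CPM in the other primary tumors and 16048 CPM in EMT6-PTR replicate 3. Skeletal muscle markers, led by Acta1, varied within both groups, with a sum of 584, 9.02 and 328 CPM in EMT6-P and 3323, 7.91 and 3.52 CPM in EMT6-PTR. For members described in full, estimates that leaving out EMT6-PTR replicate 3 moved strongly are given with and without it.

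**Figure D1:**
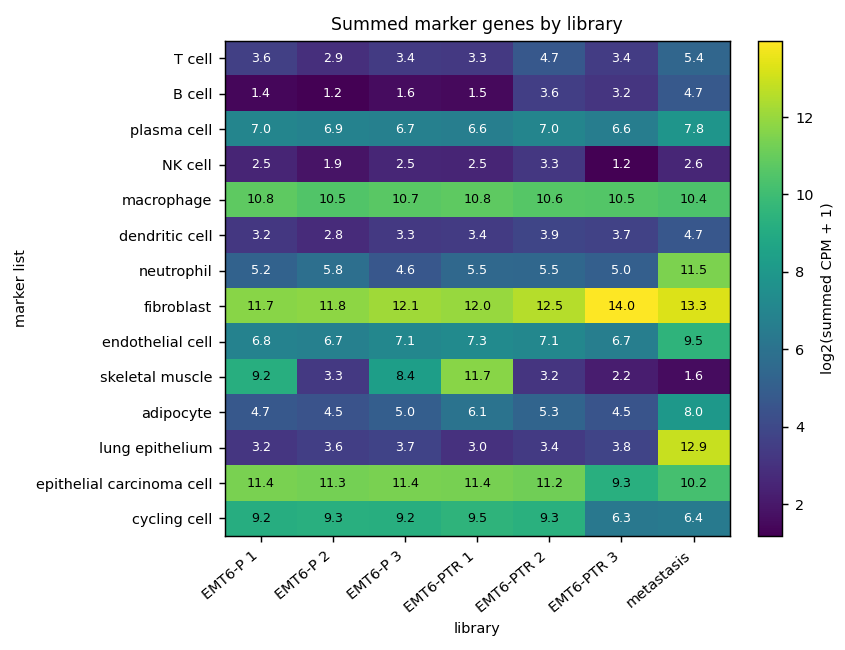
Summed CPM of each marker list (rows) in each of the 7 libraries (columns), colored as log2 of the sum plus 1. The metastasis reached 7651 CPM for lung epithelium and 2818 CPM for neutrophil markers, and EMT6-PTR replicate 3 had 611 CPM for epithelial carcinoma and 77.6 CPM for cycling cell markers.

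Tnf, the inflammatory cytokine that names the family, and the lymphotoxin genes Lta and Ltb lie side by side on chromosome 17 (build GRCm38). Tnf spans chr17:35199381-35202007 on the minus strand, 1157 bases from Lta and 3060 bases from Ltb. The bases before their RefSeq starts (GRCm38.p6) are shown because Tnf and Ltb, unlike Lta, had among the largest differences of the metastasis (given further on). They cover chr17:35202008-35202257 (minus strand) for Tnf, chr17:35205352-35205601 (minus strand) for Lta and chr17:35194257-35194438 (plus strand) for Ltb. The last 68 bases before the RefSeq start of Ltb are left out because the GENCODE annotation places them inside the gene. Capitals mark the letters TATAAA, which began 29 bases before the start of Tnf and 167 bases before that of Lta, and a match to the kappaB motif, which began 87 bases before the RefSeq start of Ltb on the reverse strand.
Tnf: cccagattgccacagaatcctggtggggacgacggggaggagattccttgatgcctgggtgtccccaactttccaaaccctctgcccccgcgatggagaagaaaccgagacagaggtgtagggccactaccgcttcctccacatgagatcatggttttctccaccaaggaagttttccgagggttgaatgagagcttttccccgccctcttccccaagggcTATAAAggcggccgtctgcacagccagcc
Lta: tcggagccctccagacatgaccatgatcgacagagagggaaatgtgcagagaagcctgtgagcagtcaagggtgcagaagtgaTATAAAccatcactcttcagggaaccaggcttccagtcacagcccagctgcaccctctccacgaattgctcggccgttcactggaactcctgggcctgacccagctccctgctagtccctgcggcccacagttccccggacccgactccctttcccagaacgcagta
Ltb: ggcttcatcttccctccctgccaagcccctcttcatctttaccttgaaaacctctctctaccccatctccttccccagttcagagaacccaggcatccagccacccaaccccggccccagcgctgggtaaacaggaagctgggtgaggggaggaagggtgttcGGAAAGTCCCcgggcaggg
Both strands were searched in the 250 bases before each start. Of 32851 such windows, 7.25% held the kappaB motif and 12.4% held TATAAA. Of the 35 members with an entry, 4 held the kappaB motif (Ltb, Tnfrsf25, Tnfrsf8 and Tnfrsf9) and 6 held TATAAA (Tnf, Lta, Tnfrsf17, Tnfrsf23, Tnfsf11 and Tnfsf18), which is 11.4% and 17.1%. A member counted once if any of its windows held the motif, whereas the shares of all windows count single windows. These shares are therefore not directly comparable. A match of letters describes the sequence and does not show binding.

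Levels can be compared between genes only per length, here as CPM per kilobase of merged exons. On this scale receptors led the EMT6-P tumors. Tnfrsf12a, the receptor for TWEAK, was highest, with a lowest, median and highest value of 84.2, 92.1 and 98.4 CPM per kilobase. Tnfrsf1a, the broadly expressed TNF receptor with a death domain, came next at 42.3, 44.0 and 46.1 CPM per kilobase, with no overlap with its neighbors in the order. Ltbr, Tnfrsf23, Tnfrsf9 and Tnfrsf1b followed. Ltbr, Tnfrsf23 and Tnfrsf9 each overlapped the next gene in range over the 3 tumors, and Tnfrsf1b did not. The highest ligand was Tnfsf9 (4-1BB ligand), at rank 7, with 16.1 to 17.5 CPM per kilobase, and Tnf was at rank 14 with 3.63 to 6.67 CPM per kilobase. In the metastasis the order began with Tnfrsf1a at 99.4, Tnf at 79.9 and Tnfrsf12a at 68.6 CPM per kilobase. Ligands made up 10.9%, 9.99% and 10.3% of the summed CPM of the family in EMT6-P, 11.9%, 10.7% and 13.1% in EMT6-PTR and 22.7% in the metastasis.

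**Figure D2:**
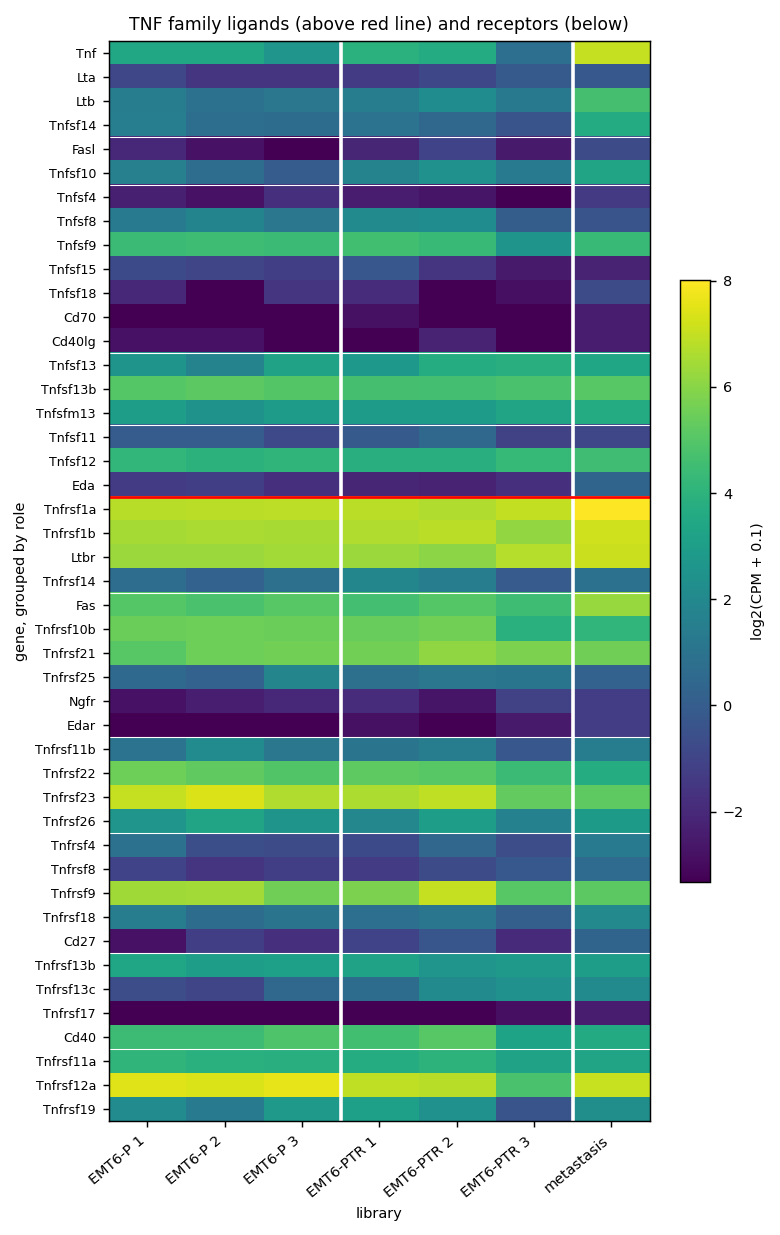
Level of each of the 45 family genes (rows, ligands above the red line and receptors below) in each of the 7 libraries (columns), colored as log2 of CPM plus 0.1. Receptors such as Tnfrsf1a (101 to 127 CPM in the primary tumors) were among the brightest rows, and Tnf reached 131 CPM in the metastasis.

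In EMT6-PTR against EMT6-P, none of the 32 members tested was called in edgeR's quasi-likelihood test, where Benjamini-Hochberg adjusted p lay between 0.421 and 0.997. Across all 15645 genes tested the share called was 0.0% as well. At an unadjusted p under 0.05 there were 2 members, Tnfrsf13c with a higher and Tnfsf13b with a lower estimate, against 11.4% of all genes (5.84% higher and 5.57% lower). DESeq2 called 281 genes, with Tnfrsf13c as the only member, and limma-voom called 0 genes. The median log2 fold change was -0.07 over the members and 0.03 over all genes tested. It was 0.15 over the 11 ligands tested and -0.24 over the 21 receptors tested. At least 2-fold higher estimates were found for 2 members (Tnfrsf13c and Tnfsf10, against 6.27% of all genes) and a 2-fold lower estimate for 1 member (Tnfrsf12a, against 1.29%). The values of the groups did not overlap for 1 member that was higher (Tnfrsf13c, against 9.52% of all genes) and for 2 that were lower (Tnfsf13b and Tnfrsf12a, against 11.8%).

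EMT6-PTR replicate 3 was the lowest of the 6 primary tumors for 19 of the 32 members tested and for 14 of the 21 receptors, against 34.5% of all genes. The median member stood at 0.01 and 0.18 on the log2 scale relative to the EMT6-P mean in EMT6-PTR replicates 1 and 2, and at -0.69 in replicate 3. The median of all genes lay between -0.03 and 0.003 in those 3 tumors. The low keratin and cycling cell markers of replicate 3 moved with these values, and their part in them was not tested. Without this tumor, 5 members had an unadjusted p under 0.05, against 20.3% of all genes. These were Tnfsf13b, Tnfsf12 and Tnfrsf12a with lower and Tnfrsf14 and Tnfrsf13c with higher estimates, and none was called.

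**Figure D3:**
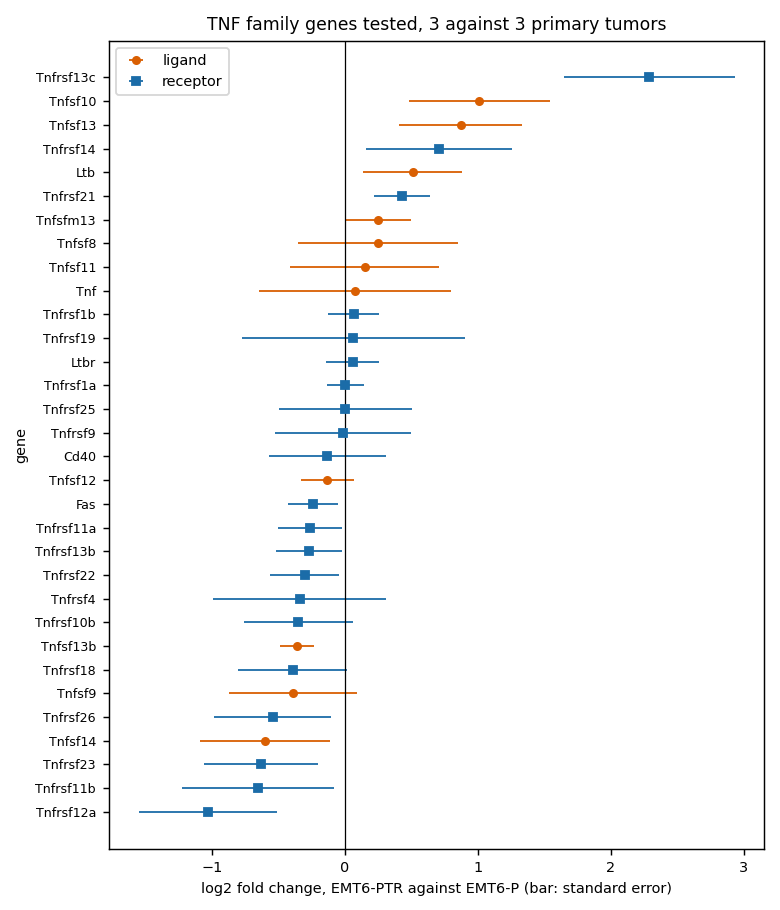
Log2 fold change of each of the 32 members tested in EMT6-PTR against EMT6-P (points; bars show the standard error; 3 tumors in each group). The estimates ran from -1.03 for Tnfrsf12a to 2.29 for Tnfrsf13c, and none was called.

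Among the inflammatory ligands, Tnf was at 10.9, 10.9 and 5.94 CPM in the EMT6-P tumors, 15.0, 12.6 and 1.68 CPM in the EMT6-PTR tumors and 131 CPM in the metastasis. EMT6-PTR replicates 1 and 2 were above every EMT6-P tumor and replicate 3 was below them all. The log2 fold change of EMT6-PTR was 0.08 (SE 0.72) with an adjusted p of 0.969 (edgeR quasi-likelihood test, Benjamini-Hochberg), and 0.58 without replicate 3. Ltb, which forms a membrane heterotrimer with lymphotoxin α, was at 2.63, 1.78 and 2.17 CPM in EMT6-P, 2.57, 4.51 and 2.31 CPM in EMT6-PTR and 25.5 CPM in the metastasis. Its groups of primary tumors overlapped, with a log2 fold change of 0.51 (SE 0.37). Leaving out 1 tumor at a time, this ran from 0.16 (without EMT6-PTR replicate 2) to 0.69 (without EMT6-PTR replicate 3). Tnfsf14 (LIGHT), a further ligand of the lymphotoxin β receptor, was at 2.78, 1.59 and 1.51 CPM in EMT6-P, 1.92, 1.28 and 0.664 CPM in EMT6-PTR and 12.4 CPM in the metastasis. These groups overlapped too, with a log2 fold change of -0.60 (SE 0.49), which was -0.28 without EMT6-PTR replicate 3. Lta had 5 to 9 counts in EMT6-P, 7 to 21 in EMT6-PTR and 19 in the metastasis and was not tested.

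Of the death ligands, Tnfsf10 (TRAIL) was at 2.92, 1.54 and 0.896 CPM in EMT6-P and at 3.23, 5.24 and 2.38 CPM in EMT6-PTR. The groups overlapped through EMT6-P replicate 1, which was above EMT6-PTR replicate 3, and the log2 fold change was 1.01 (SE 0.53) with an adjusted p of 0.485 (edgeR quasi-likelihood test, Benjamini-Hochberg). Leaving out 1 tumor at a time, this estimate ran from 0.65 to 1.56. Fasl, with which cytotoxic lymphocytes kill target cells, had at most 7 counts in any primary tumor and 13 in the metastasis.

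Ligands that costimulate T cells were low except for Tnfsf9, part of which overlaps the noncoding gene Gm11110 on the opposite strand. Tnfsf9 was at 20.8, 22.6 and 21.1 CPM in EMT6-P, 24.0, 19.6 and 5.74 CPM in EMT6-PTR and 20.3 CPM in the metastasis. EMT6-PTR replicate 3 stood apart from the rest, and the log2 fold change was -0.39 (SE 0.48) with this tumor and 0.02 without it. Tnfsf8 (CD30 ligand) was at 2.44, 3.41 and 2.12 CPM in EMT6-P, 4.10, 4.51 and 0.899 CPM in EMT6-PTR and 0.679 CPM in the metastasis. It had its 2 highest values and its lowest primary value in EMT6-PTR, with a log2 fold change of 0.25 (SE 0.60) that was 0.69 without replicate 3. Cd70, Cd40lg, Tnfsf4 (OX40 ligand), Tnfsf15 and Tnfsf18 (GITR ligand) did not pass the filter. Cd70 had 0 counts in each EMT6-P tumor and at most 2 in any library, and Tnfsf15 had 2 to 17 counts in the primary tumors and 3 in the metastasis. Cd40lg had at most 2 counts in any library. Tnfsf4 had 0 to 4 counts in the primary tumors and 7 in the metastasis, and Tnfsf18 had 0 to 5 and 13.

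Ligands that sustain B cells gave 1 of the members at an unadjusted p under 0.05. Tnfsf13b (BAFF), a survival factor of B cells, was at 32.7, 35.1 and 31.0 CPM in EMT6-P, 25.7, 24.3 and 27.0 CPM in EMT6-PTR and 33.6 CPM in the metastasis. All EMT6-PTR tumors were below all EMT6-P tumors, and the metastasis was within the EMT6-P range. The log2 fold change was -0.36 (SE 0.13, unadjusted p = 0.0266), with an adjusted p of 0.427 (edgeR quasi-likelihood test, Benjamini-Hochberg), and it was -0.40 without EMT6-PTR replicate 3. Tnfsf13 (APRIL) was at 5.65, 3.22 and 9.24 CPM in EMT6-P, 6.59, 13.0 and 13.5 CPM in EMT6-PTR and 10.0 CPM in the metastasis, and its groups overlapped. Tnfsf12 (TWEAK) was at 17.9, 15.6 and 16.8 CPM in EMT6-P, 13.6, 13.5 and 19.0 CPM in EMT6-PTR and 23.2 CPM in the metastasis. Tnfsf12, Tnfsf13 and their readthrough gene Tnfsfm13 (5.42 to 12.4 CPM) overlap on the same strand of chromosome 11, so that the division of reads among these genes is uncertain. Tnfsf11 (RANKL) was at 0.352 to 1.34 CPM in all libraries. Eda (ectodysplasin) had 2 to 7 counts in the primary tumors and 29 in the metastasis and was not tested.

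Receptors for TNF and the lymphotoxins were detected in every library. Tnfrsf1a was at 110, 114 and 119 CPM in EMT6-P, 116, 101 and 127 CPM in EMT6-PTR and 258 CPM in the metastasis. Tnfrsf1b, the TNF receptor of immune and endothelial cells, was at 88.7, 95.3 and 91.9 CPM in EMT6-P, 102, 114 and 72.9 CPM in EMT6-PTR and 148 CPM in the metastasis. Ltbr, the lymphotoxin β receptor, was at 78.6, 78.6 and 85.9 CPM in EMT6-P, 79.5, 64.8 and 109 CPM in EMT6-PTR and 138 CPM in the metastasis. For each of these receptors the EMT6-PTR tumors lay on both sides of the EMT6-P tumors and the metastasis was above all primary tumors. The log2 fold changes of EMT6-PTR were 0.01 (SE 0.14) for Tnfrsf1a, 0.07 (SE 0.19) for Tnfrsf1b and 0.06 (SE 0.20) for Ltbr. Without EMT6-PTR replicate 3 they were -0.07, 0.23 and -0.17. Tnfrsf14 (HVEM) was at 0.86 to 3.53 CPM.

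None of the death domain receptors tested was called. Fas was at 32.7, 27.2 and 33.0 CPM in EMT6-P, 24.6, 32.2 and 22.1 CPM in EMT6-PTR and 77.7 CPM in the metastasis. Its primary groups overlapped, with a log2 fold change of -0.24 (SE 0.19). Leaving out 1 tumor at a time, this ran from -0.40 (without EMT6-PTR replicate 2) to -0.13 (without EMT6-PTR replicate 3). Tnfrsf10b, the mouse TRAIL receptor, was at 43.5, 45.7 and 44.5 CPM in EMT6-P, 41.8, 48.4 and 14.7 CPM in EMT6-PTR and 17.7 CPM in the metastasis. EMT6-PTR replicate 3 and the metastasis were its low libraries, and the log2 fold change was -0.35 (SE 0.41) with that tumor and 0.02 without it. Tnfrsf21 (DR6) was at 33.7, 45.6 and 48.4 CPM in EMT6-P, 47.9, 70.5 and 54.1 CPM in EMT6-PTR and 46.8 CPM in the metastasis. The log2 fold change of Tnfrsf21 was 0.43 (SE 0.21), with an adjusted p of 0.468 (edgeR quasi-likelihood test, Benjamini-Hochberg), and EMT6-PTR replicate 1 overlapped the EMT6-P range. Leaving out 1 tumor at a time, the estimate ran from 0.26 (without EMT6-PTR replicate 2) to 0.55 (without EMT6-PTR replicate 1). Tnfrsf25 (DR3) was at 1.07 to 3.44 CPM. Ngfr had at most 9 counts in any library, and Edar had 0 counts in each EMT6-P tumor, at most 2 in EMT6-PTR and 8 in the metastasis.

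Decoy receptors bind ligands without a complete signaling domain. Tnfrsf23 was at 128, 171 and 99.6 CPM in EMT6-P, 96.6, 123 and 39.2 CPM in EMT6-PTR and 37.2 CPM in the metastasis. Tnfrsf22 was at 45.5, 38.2 and 30.1 CPM in EMT6-P, 37.1, 33.9 and 21.3 CPM in EMT6-PTR and 13.0 CPM in the metastasis. Both were lowest in the metastasis and next lowest in EMT6-PTR replicate 3, with overlapping primary groups. Their log2 fold changes in EMT6-PTR were -0.63 (SE 0.43) for Tnfrsf23 and -0.30 (SE 0.26) for Tnfrsf22, and they were -0.28 and -0.10 without EMT6-PTR replicate 3. Both are TRAIL decoy receptors with related sequences in a cluster on chromosome 7 that also holds Tnfrsf26, so that the division of reads between them is uncertain. Tnfrsf26, listed here with the decoys, was at 3.05 to 9.62 CPM. Tnfrsf11b (osteoprotegerin), the soluble decoy of RANKL, was at 0.742 to 4.34 CPM. All 4 decoys had a log2 fold change below 0, against 7457 of all 15645 genes tested, and none was called. All 4 had their lowest primary value in EMT6-PTR replicate 3, against 34.5% of all genes.

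Among receptors of T cell costimulation, Tnfrsf9 (4-1BB) was the highest per kilobase. Reads of Tnfrsf9 and of Camta1, which overlaps it on the opposite strand, may not be separated. Tnfrsf9 was at 84.8, 85.9 and 47.4 CPM in EMT6-P, 53.9, 129 and 33.6 CPM in EMT6-PTR and 35.4 CPM in the metastasis. The EMT6-PTR tumors lay on both sides of the EMT6-P tumors, with a log2 fold change of -0.01 (SE 0.51) that was 0.33 without EMT6-PTR replicate 3. The sum of 8 T cell markers was 11.1, 6.54 and 9.67 CPM in EMT6-P, 8.73, 25.2 and 9.92 CPM in EMT6-PTR and 41.4 CPM in the metastasis, and its part in the values of these receptors was not tested. Tnfrsf4 (OX40) was at 1.75, 0.561 and 0.519 CPM in EMT6-P, 0.48, 1.23 and 0.547 CPM in EMT6-PTR and 2.44 CPM in the metastasis. Tnfrsf18 (GITR) was at 0.977 to 2.73 CPM in the primary tumors and 3.88 CPM in the metastasis. Cd27 and Tnfrsf8 (CD30) did not pass the filter, with 1 to 13 and 5 to 20 counts in the primary tumors and 29 and 36 counts in the metastasis.

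Of the receptors of B cells and antigen-presenting cells, Tnfrsf13c (BAFF receptor), at chr15:82221743-82224369, had the largest estimate of all members tested. It was at 0.536, 0.42 and 1.27 CPM in EMT6-P, 1.53, 4.23 and 5.24 CPM in EMT6-PTR and 4.16 CPM in the metastasis. All EMT6-PTR tumors were above all EMT6-P tumors, with replicate 1 close to the highest EMT6-P value. The log2 fold change was 2.29 (SE 0.64, unadjusted p = 0.00986), with an adjusted p of 0.421 (edgeR quasi-likelihood test, Benjamini-Hochberg), and DESeq2 gave 2.32 with an adjusted p of 0.0374. Leaving out 1 tumor at a time, the log2 fold change ran from 1.93 (without EMT6-PTR replicate 3) to 2.92 (without EMT6-P replicate 3). B cell markers moved with it. The sum of 6 such markers was 1.61, 1.26 and 2.08 CPM in EMT6-P, 1.88, 10.9 and 8.01 CPM in EMT6-PTR and 25.9 CPM in the metastasis. Cd79a, a signaling chain of the B cell receptor and the most abundant of these, was at 0.141 to 0.28 CPM in EMT6-P and at 0.436, 4.79 and 5.78 CPM in EMT6-PTR. The part of these markers in the Tnfrsf13c values was not tested.

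Cd40, which activates antigen-presenting cells, was at 21.8, 21.7 and 29.5 CPM in EMT6-P, 23.5, 33.9 and 9.53 CPM in EMT6-PTR and 11.9 CPM in the metastasis. EMT6-PTR replicate 3 was again the low primary tumor, and the log2 fold change was -0.13 (SE 0.44) with it and 0.23 without it. Tnfrsf13b (TACI) was at 5.85 to 9.94 CPM in all libraries. Tnfrsf17 (BCMA), a receptor of plasma cells, had 0 counts in 5 of the 6 primary tumors, 1 in EMT6-PTR replicate 3 and 2 in the metastasis.

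Of the tissue receptors, Tnfrsf12a (Fn14, chr17:23675445-23677468), the receptor for TWEAK, had the most negative estimate of all members tested. It was at 178, 163 and 190 CPM in EMT6-P, 123, 111 and 27.0 CPM in EMT6-PTR and 132 CPM in the metastasis. All EMT6-PTR tumors were below all EMT6-P tumors, replicate 3 by the widest margin. The log2 fold change was -1.03 (SE 0.52), with an adjusted p of 0.477 (edgeR quasi-likelihood test, Benjamini-Hochberg). Without EMT6-PTR replicate 3 it was -0.60 (SE 0.12), with an adjusted p of 0.125 in edgeR's quasi-likelihood test. Tnfrsf11a (RANK), the receptor for RANKL, was at 17.0, 14.4 and 14.1 CPM in EMT6-P, 13.0, 15.9 and 9.18 CPM in EMT6-PTR and 9.87 CPM in the metastasis. These groups overlapped, with a log2 fold change of -0.26 (SE 0.24) that was -0.07 without replicate 3. Tnfrsf19 (TROY) was at 0.664 to 8.33 CPM.

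**Figure D4:**
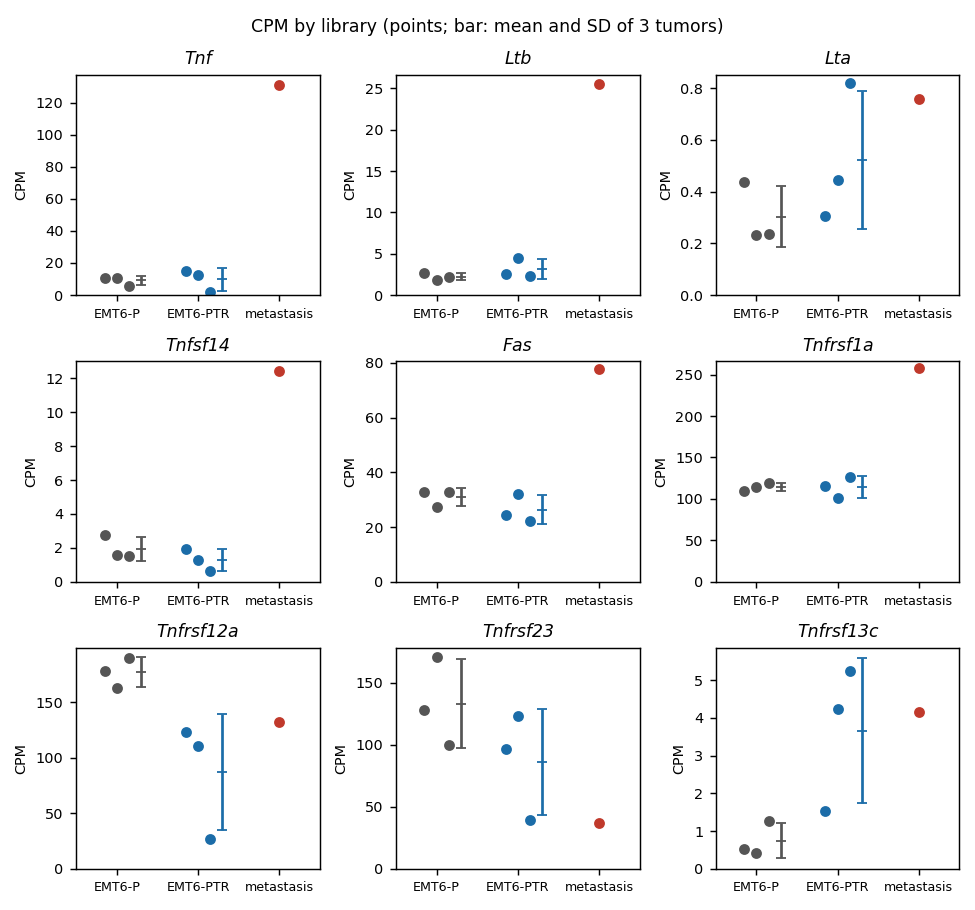
CPM in each library for selected family genes, with 1 panel a gene (points are libraries; the bar and its error are the mean and SD of 3 tumors; the metastasis is 1 library). Tnfrsf12a was lower and Tnfrsf13c higher in every EMT6-PTR tumor than in every EMT6-P tumor, and Tnf, Ltb and Tnfsf14 were highest in the metastasis.

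The metastasis was compared with the mean of the 3 EMT6-PTR tumors on the scale of log2 CPM with a prior count of 2. It is 1 library, so the difference has no replicate check and no test. At least 2-fold higher were 8 of the 32 members (against 12.4% of all genes), and at least 2-fold lower were 3 (against 8.58%). Leaving out 1 EMT6-PTR tumor at a time gave 8 to 11 members at least 2-fold higher and 2 to 7 lower, with 7 lower without replicate 3. The median difference was 0.55 over the members and -0.02 over all genes tested. The metastasis was above all 6 primary tumors for 12 members (against 20.9% of all genes) and below all of them for 3 (against 24.1%).

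Of the 32 members tested, Tnf, Tnfsf14 and Ltb had the largest differences. Tnf was 4.23 higher on the log2 scale and 8.72 times the highest primary tumor, and 140 of the 15645 genes tested had a larger difference. Tnfsf14 was 3.29 higher and Ltb 3.05 higher, with 287 and 347 genes above them. Lta, the neighbor of Tnf, was 0.56 higher and within the range of the primary tumors. Leaving out 1 EMT6-PTR tumor at a time, the difference ran from 3.24 to 4.79 for Tnf, from 2.91 to 3.62 for Tnfsf14 and from 2.87 to 3.34 for Ltb, and the lowest value of each came without replicate 3. Tnf made up 46.3% of the summed ligand CPM in the metastasis, against 5.95% to 10.6% in EMT6-P and 1.99% to 14.1% in EMT6-PTR. The other members at least 2-fold higher were Tnfrsf4 (1.69), Fas (1.58), Tnfsf10 (1.49), Tnfrsf18 (1.32) and Tnfrsf1a (1.17). Those at least 2-fold lower were Tnfsf8 (-1.80) and the decoys Tnfrsf22 (-1.19) and Tnfrsf23 (-1.05). Without replicate 3 these were -2.51, -1.44 and -1.54. Eda, which did not pass the filter, was 2.42 higher.

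The lung, neutrophil and endothelial markers moved with these values, as did other lists. The sum of 5 endothelial markers was 711 CPM in the metastasis and 101 to 157 CPM in the primary tumors. The sums of T cell (41.4 CPM), B cell (25.9 CPM), dendritic cell (24.4 CPM), plasma cell (227 CPM) and adipocyte (253 CPM) markers were also above every primary tumor. Xbp1 (199 CPM) and Lpl (238 CPM) led the plasma cell and adipocyte sums. The sums of macrophage (1344 CPM) and skeletal muscle (2.04 CPM) markers were below every primary tumor. Those of the NK cell, fibroblast, epithelial carcinoma and cycling cell lists were within the primary range. The part of lung tissue, neutrophils and the other cell types in the family values of the metastasis was not tested. With 1 library the tumor cells and the host tissue cannot be told apart.

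**Figure D5:**
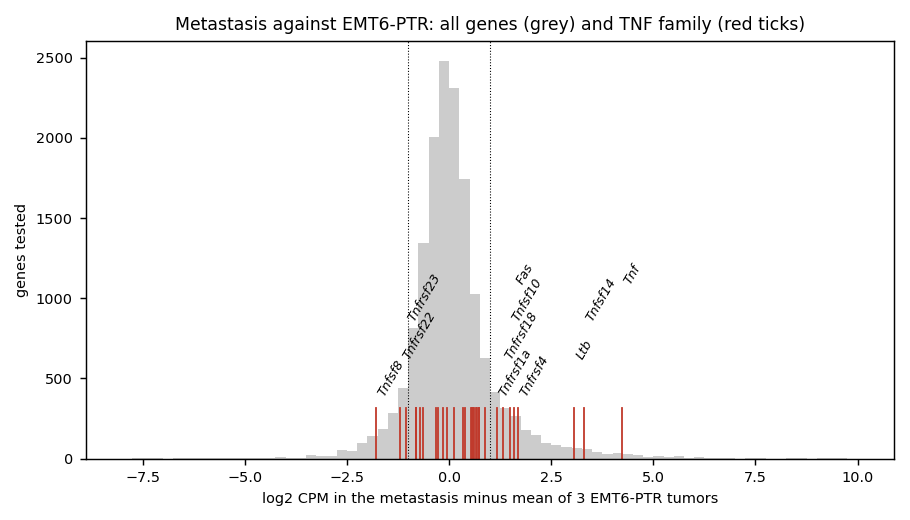
Number of genes tested (vertical axis) by log2 CPM in the metastasis minus the mean of 3 EMT6-PTR tumors (horizontal axis); red ticks mark the 32 family members and dotted lines mark a 2-fold difference. Tnf (4.23), Tnfsf14 (3.29) and Ltb (3.05) lay at the far right among the members, and Tnfsf8 (-1.80) at the far left.

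Of 59 genes that act downstream of the receptors or process the family proteins, 58 passed the filter and none was called in EMT6-PTR against EMT6-P. At an unadjusted p under 0.05, 1 gene had a higher estimate (Map3k7, the kinase TAK1) and 4 had lower ones, among them Rela and Tradd, against 5.84% and 5.57% of all genes. The median log2 fold change over the 58 genes was -0.05. Among the genes of death signaling, Ripk3, a kinase of necroptosis, had a log2 fold change of -0.77 (SE 0.49). It was at 17.7, 13.9 and 15.2 CPM in EMT6-P and 13.6, 10.7 and 3.28 CPM in EMT6-PTR, with replicate 3 the lowest.

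Among the 14 adaptors and ubiquitin ligases tested, none of the smallest p-values led to a call. Tradd, the adaptor of TNF receptor 1, was at 24.1, 21.6 and 22.0 CPM in EMT6-P and 17.5, 15.2 and 18.3 CPM in EMT6-PTR, with no overlap and a log2 fold change of -0.41 (SE 0.15). Traf6 had 0.48 (SE 0.24) and the ubiquitin ligase gene Birc3 had 0.24 (SE 0.12). Of the 12 kinases and NF-κB subunits, Rela, the p65 subunit of NF-κB, was at 90.5, 86.9 and 83.7 CPM in EMT6-P and 77.5, 65.3 and 55.5 CPM in EMT6-PTR. These groups did not overlap, with a log2 fold change of -0.40 (SE 0.15) and an adjusted p of 0.433 (edgeR quasi-likelihood test, Benjamini-Hochberg). Map3k7 had a log2 fold change of 0.34 (SE 0.14) and its partner Tab2 had 0.30 (SE 0.14). Of the 17 feedback inhibitors and TNF-induced genes, Tnfaip6 had 1.35 (SE 0.58), with 3.56 to 6.27 CPM in EMT6-P and 5.37, 7.46 and 22.2 CPM in EMT6-PTR. The inhibitor genes Nfkbib and Cyld had -0.23 (SE 0.13) and -0.20 (SE 0.14). Of the 5 genes of shedding and related receptors, Relt had -0.47 (SE 0.23), Rhbdf2 had -0.47 (SE 0.38) and the sheddase gene Adam10 had 0.28 (SE 0.21).

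In the metastasis, 15 of the 58 pathway genes were at least 2-fold higher than the EMT6-PTR mean (against 12.4% of all genes) and 1 was lower, Eda2r (against 8.58%). Feedback inhibitors and TNF-induced genes held 10 of these 15, with a median difference of 1.25 over the 17 genes, and 13 of the 17 were above every primary tumor (against 20.9% of all genes). The lung, neutrophil, endothelial and other markers raised in the metastasis, given above, moved with these values. Their part in them was not tested. The genes named next were chosen after their values were seen. Cxcl2, a neutrophil chemokine, was at 816 CPM in the metastasis and 1.41 to 12.9 CPM in the primary tumors. The adhesion receptor gene Icam1 was at 750 CPM against 8.67 to 28.1 CPM. Tnfaip3, which encodes the NF-κB inhibitor A20, was at 416 CPM against 30.2 to 87.6 CPM, and Nfkbia, which encodes IκBα, was at 694 CPM against 73.8 to 155 CPM. In the other pathway lists the genes at least 2-fold higher were Birc3 (2.19), Relt (1.51), Xiap (1.22), Rela (1.20) and Relb (1.16).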

How the data were processed

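RNA from 6 primary tumors and 1 metastasis was sequenced as stranded polyadenylated libraries. Per the submitters' processing notes and the study's methods, the authors checked reads with FastQC 0.11.5, aligned them to GRCm38 with STAR 2.6.0a, checked alignments with RSeQC and estimated gene counts with RSEM 1.3.1. The deposited values are these estimated counts for 53465 genes, before any normalization, with 13.5% to 15.6% fractional values in a library. The strand setting of the counting is not given in the sources used here, so that reads of overlapping genes on opposite strands may not be separated. Overlaps of this kind with genes of at least 1 CPM were those of Tnfrsf9 with Camta1, Tnfsf9 with Gm11110, Cd27 with Vamp1, and Tnfsf12, Tnfsf13 and Tnfsfm13 with Tnfsf13os. RSEM divides reads shared by similar genes by estimation. The depth per library is given in the report, a gene at 0 could hold up to 3 counts, and this limit covers counting error only.

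Identifiers were matched to GENCODE annotation of the same build, and 53360 had a symbol. The rule for members left out 1 antisense gene. Estimated counts were rounded, and genes with low counts in the 6 primary tumors were removed with filterByExpr, which left 15645. Libraries were scaled by upper-quartile factors, and 3 EMT6-PTR tumors were compared with 3 EMT6-P tumors by edgeR 4.0.16 (glmQLFit and glmQLFTest, R 4.3.3) with Benjamini-Hochberg adjustment over all genes tested. The standard error is the log2 fold change divided by the square root of F. CPM values were computed from the deposited counts on the same scale. Fits were tested on simulated data.

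Members and gene lists were chosen with earlier results of these data known. Members given in full have a mean of at least 10 CPM in the primary tumors, are among the 8 smallest p-values, or are among the 6 largest differences of the metastasis among members with at least 1 CPM in any library. Of each pathway list the 3 genes with the smallest p-values are given, except for some genes that are not reported here. The alternatives were TMM scaling, DESeq2 1.42.0, limma-voom (limma 3.58.1), no filter, at least 10 counts in every primary tumor, the metastasis as an additional group, the replicate number as a block, a prior count of 0.5, and leaving out each tumor in turn. Promoter sequences come from RefSeq on GRCm38.p6. Python 3.11.15, pandas 2.3.3 and matplotlib 3.10.9 made the tables and plots.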

Additional observations from a re-analysis of the deposited data

How the results depend on the processing

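Of 23 named members tested, 13 kept the direction of their log2 fold change in EMT6-PTR under all alternatives and 10 reversed it in at least 1, none of them with a call. DESeq2 called 281 genes and 1 member (Tnfrsf13c, 2.32) against 0 and 0 with edgeR's quasi-likelihood test. Without a filter 10 members were at least 2-fold different, and with the metastasis as an additional group 5 were, against 3. With at least 10 counts in every primary tumor 1 member had an unadjusted p under 0.05, against 2, because Tnfrsf13c was not among the genes tested. With limma-voom the median log2 fold change was -0.26 over the members and -0.02 over all genes tested, against -0.07 over the members with edgeR. Reversed estimates were those of Tnfrsf9 with TMM scaling (0.0077), DESeq2 (0.014) and at least 10 counts (0.006), and of Tnf (-0.46), Tnfsf8 (-0.091) and Tnfrsf1a (-0.002) with limma-voom; the cause was not tested. Leaving out 1 tumor at a time, 0 to 0 genes and 0 to 0 members were called. The members with an unadjusted p under 0.05 then numbered 1 (without EMT6-P replicate 2) to 5 (without EMT6-PTR replicate 3), and those at least 2-fold different 2 to 5 (the latter without EMT6-PTR replicate 1). The median ran from -0.21 to 0.015. The metastasis had 8 to 11 members at least 2-fold higher and 2 to 7 lower, with 7 without EMT6-PTR replicate 3. The log2 fold change then ran from -0.38 to 0.58 for Tnf, -0.085 to 0.69 for Tnfsf8, -0.77 to 0.02 for Tnfsf9, -0.073 to 0.091 for Tnfrsf1a, -0.068 to 0.23 for Tnfrsf1b, -0.17 to 0.22 for Ltbr, -0.66 to 0.015 for Tnfrsf10b, -0.87 to 0.46 for Tnfrsf4, -0.73 to 0.33 for Tnfrsf9 and -0.56 to 0.23 for Cd40. Depth limits the 13 members that did not pass the filter.

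Tumors of the 2 groups share replicate numbers. Deviations from the group means correlated by 0.259, 0.252 and 0.0387 between tumors of the same number. The largest correlation of each EMT6-P tumor with an EMT6-PTR tumor of another number was -0.134, 0.077 and 0.0974. For replicates 1 and 2 the same number thus gave the higher value, and for replicate 3 it did not. The labels do not say whether tumors of the same number share a batch, and this was not tested. With the replicate number as a block, 0 genes were called, 2 members had an unadjusted p under 0.05 (Tnfrsf23 and Tnfrsf13c), the median was -0.21, and the estimates of Tnf (-0.33) and Tnfrsf1a (-0.00021) were reversed.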
